A study of Mus musculus with 2 samples.

Results

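A set of 8 genes that handle phosphate or pyrophosphate, out of 31053 genes measured, was followed through single-cell libraries of the mouse dental pulp, the soft vascularised tissue inside the tooth. They are Slc20a1 and Slc20a2, Alpl, Phospho1, Phex, Panx3, Enpp1 and Ank, taken by symbol from the gene list. Both libraries are from C57BL/6 mice at postnatal day 12. One library is from Vegfr2 knockout mice, in which this receptor (gene symbol Kdr) was targeted in endothelial cells, and the other is from control mice. The Cre driver, the deleted part of Kdr and the number of animals pooled per library are not given in the sources used here. Cells were freed with enzymes and sorted as negative for propidium iodide, a dye that enters dead cells.

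Mineral forms where inorganic phosphate is high and pyrophosphate, which blocks crystal growth, is low. Slc20a1 and Slc20a2 (PiT1 and PiT2) are sodium-coupled phosphate importers. Alpl encodes tissue-nonspecific alkaline phosphatase, which cleaves pyrophosphate to phosphate, and Phospho1 releases phosphate inside matrix vesicles. Enpp1 makes pyrophosphate from nucleotides, Ank exports pyrophosphate and ATP from cells, and Panx3 forms channels that pass ATP. Phex is an endopeptidase that restrains the phosphate-lowering hormone FGF23. In teeth these genes are best known in odontoblasts, the cells that lay down dentin, and in the mesenchymal cells next to them.

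Each captured RNA molecule carries a unique molecular identifier (UMI). UMIs of a gene were summed per library over the cells of a class and are given per 1000000 UMIs of that class (CPM). Class names are rebuilt from marker genes and mean likeness to those cell types. With 1 library per genotype there is no replicate check and no test, and the exact 95% intervals cover counting error only. After filtering, the knockout library kept 1668 cells with a median of 8273 UMIs, and the control library 2311 cells with a median of 12203 UMIs. Kdr, the targeted gene, had 649.7 CPM in knockout endothelial cells and 1054 CPM in control endothelial cells. By cluster it had 242 CPM in knockout and 829 CPM in control cells of the Gja5-led, 585 CPM in knockout and 633 CPM in control cells of the Sele-led and 2140 CPM in knockout and 2044 CPM in control cells of the Esm1-led cluster. The Esm1-led cluster held 15 of 141 knockout but 129 of 405 control endothelial cells, so the pooled Kdr difference also reflects the mix of clusters. Over the class Kdr was detected in 83.0% of the knockout cells and 91.6% of the control cells, and these reads from the 3' end need not lie in the deleted part. The libraries differed in ways the genotype labels do not give. Cells with a Y-linked UMI and no Xist UMI made up 34.0% of the sex-assigned knockout cells and 16.1% of the sex-assigned control cells. The files shared 3 barcodes, of which 2 were kept.

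Promoter windows are shown for Slc20a1, the gene with the largest knockout over control ratio in the mesenchyme, and for Alpl and Phex, whose mesenchymal ratios depended on the mix of clusters. Each window is the 250 bases before the most upstream RefSeq start of the gene on GRCm38.p6, written 5' to 3' on the gene's strand. Capitals mark matches, on either strand, to AP-1 (TGANTCA), CRE (TGACGTCA), RUNX (TGTGGT) or GC box (GGGCGG) letters.
Slc20a1, chr2:129198523-129198772, plus strand: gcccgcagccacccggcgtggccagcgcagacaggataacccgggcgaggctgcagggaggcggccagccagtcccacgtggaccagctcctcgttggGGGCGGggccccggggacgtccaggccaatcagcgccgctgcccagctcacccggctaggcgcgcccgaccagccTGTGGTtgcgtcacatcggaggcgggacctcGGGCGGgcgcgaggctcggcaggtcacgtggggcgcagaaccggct
Alpl, chr4:137796385-137796634, minus strand: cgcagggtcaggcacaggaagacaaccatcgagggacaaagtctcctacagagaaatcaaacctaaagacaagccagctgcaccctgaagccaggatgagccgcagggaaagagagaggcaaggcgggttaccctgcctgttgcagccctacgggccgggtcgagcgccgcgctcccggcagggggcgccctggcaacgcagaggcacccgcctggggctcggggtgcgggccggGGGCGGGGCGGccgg
Phex, chrX:157415287-157415536, minus strand: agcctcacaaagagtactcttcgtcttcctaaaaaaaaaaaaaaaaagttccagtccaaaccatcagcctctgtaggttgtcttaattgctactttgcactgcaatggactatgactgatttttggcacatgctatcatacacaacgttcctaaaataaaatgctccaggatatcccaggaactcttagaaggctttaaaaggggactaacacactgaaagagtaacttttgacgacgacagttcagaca
The Slc20a1 window held 2 GC boxes and 1 RUNX match, which starts 77 bases before the gene start. The Alpl window held 2 GC boxes that overlap by 1 base, and the Phex window held none of the 4 motifs. Among 32851 mouse promoter windows of this length, 32.7% held a GC box, 14.0% a RUNX match, 6.75% an AP-1 match and 1.55% a CRE match. A match is only a match of letters. Entries were found for 6 of the 8 genes, all but Slc20a2 and Panx3. By the annotation of the same build, Slc20a2 spans chr8:22476788-22569612 on the plus strand and Panx3 spans chr9:37659902-37669235 on the minus strand, and both are protein-coding.

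Clustering of both libraries together, without these genes or the related genes described below, gave 25 clusters, of which 4 were mesenchymal. The mesenchyme held 359 knockout cells and 575 control cells. Pulp mesenchyme markers were detected in at least 10% of its cells for 10 of 13 genes in the knockout library and 12 of 13 in the control library. No cluster was odontoblast-like. Dspp, the defining odontoblast gene, had 3 UMIs over all kept knockout cells and 79 over all kept control cells, and no member's value below describes odontoblasts.

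The 4 mesenchymal clusters are called by their leading genes. The Cnmd-led cluster, led by the cartilage and tendon gene chondromodulin, held 25.1% of knockout and 28.3% of control mesenchymal cells. The Pamr1-led cluster, with Cldn10 among its leading genes, held 17.8% of knockout cells and 37.4% of control cells. The Pcp4-led cluster, with the follicle marker Smoc2, held 7.24% of knockout cells and 24.0% of control cells. The Gm42743-led cluster, led mostly by non-coding transcripts and with the transcription factor Sp9 among its leading genes, held 49.9% of knockout cells and 10.3% of control cells. Different clusters therefore made up most of the mesenchyme in each library, so the mesenchymal values of the 8 genes are followed by values within clusters where there were UMIs to compare. The 26 knockout cells of the Pcp4-led cluster were shallow, with a median of 2270 UMIs against 17545 in the 138 control cells. In the knockout library the clusters also split by the sex of the cells. The Gm42743-led cluster had 166 Xist-positive and 8 Y-positive knockout cells, whereas the Pamr1-led cluster had 17 Xist-positive and 30 Y-positive ones. In the control library Y-positive cells ranged over these 4 clusters from 8.57% to 15.1% of the assigned cells. The median mitochondrial share was 7.09% in knockout and 5.65% in control mesenchymal cells.

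Over the mesenchyme, 7 of the 8 genes had at least 20 UMIs over both libraries. Only Slc20a1 was at least 1.5-fold higher in the knockout library, where 11.5% of all 12615 measured genes were. Panx3 and Enpp1 were at least 1.5-fold lower, where 13.1% of all measured genes were. Alpl, Phex, Slc20a2 and Ank lay between these limits. With 7 genes, 1 higher and 2 lower are counts too small to set the group apart from all genes. The median log2 ratio was -0.045 over the 7 genes and -0.050 over all measured genes.

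**Figure D1:**
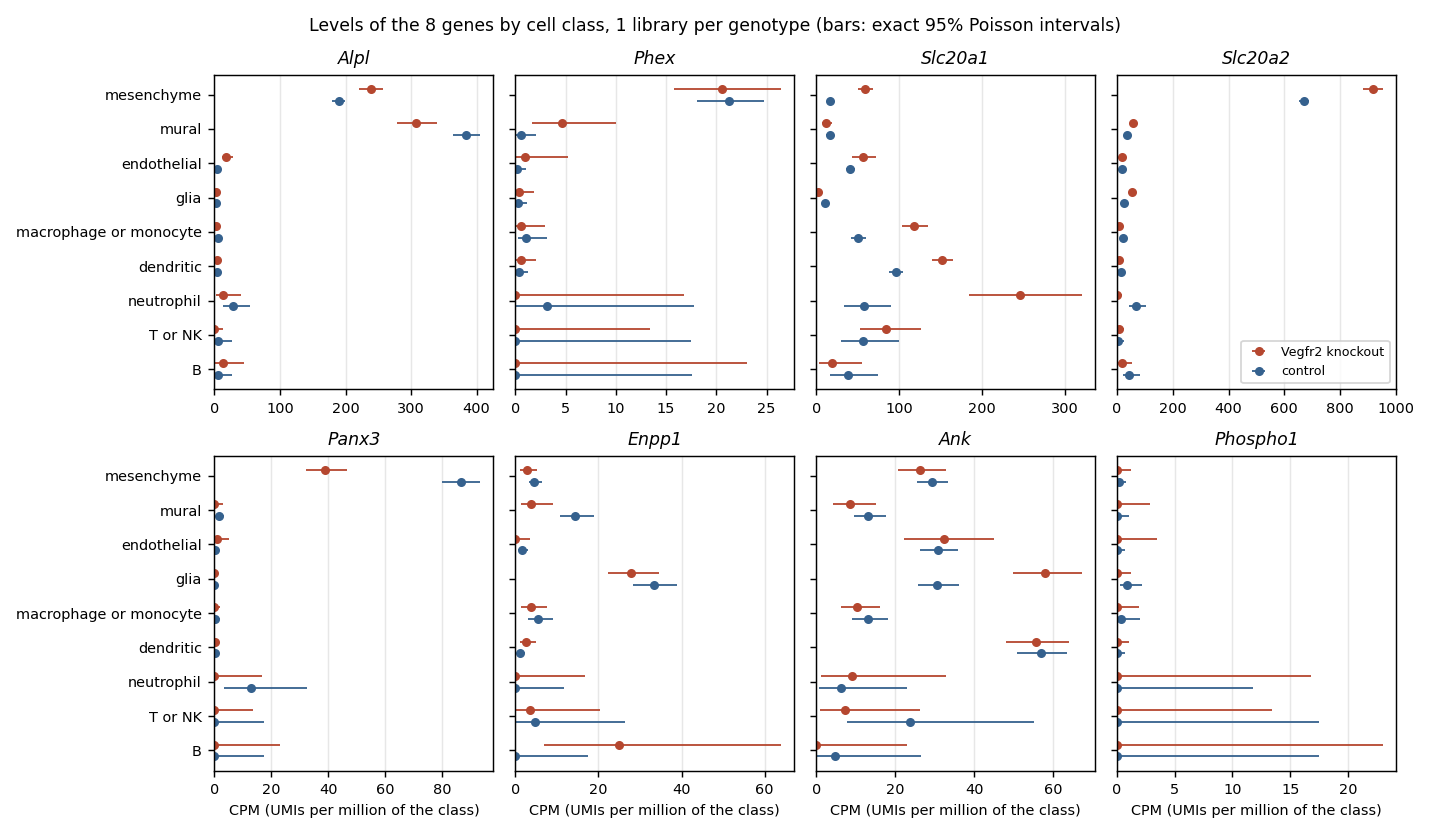
Level of each of the 8 genes in CPM (UMIs scaled to the class total, horizontal axis, own scale per panel) in 9 cell classes, Vegfr2 knockout library in red above and control library in blue below, with exact 95% Poisson intervals. Slc20a2, Phex and Panx3 are mostly mesenchymal, Alpl is highest in mural cells and next in the mesenchyme, Slc20a1 is highest in myeloid cells, and Enpp1 in glia.

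Slc20a1, the first phosphate importer, had 59.4 CPM (176 UMIs) in the knockout mesenchyme and 17.2 CPM (131 UMIs) in the control mesenchyme, a ratio of 3.46 (interval 2.74 to 4.37). A UMI was seen in 35.7% of knockout cells and 17.2% of control cells although the knockout cells were shallower. When each cell was thinned to 2000 UMIs the shares were 10.9% of knockout and 3.15% of control cells, with 30 knockout and 35 control cells too shallow to enter. In glia, the class with the lowest level, the shares before thinning were 2.41% of knockout cells (median 8598 UMIs) and 11.2% of control cells (median 12216 UMIs).

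The ratio of Slc20a1 was above 1 in 4 of 4 mesenchymal clusters, and its interval excluded 1 in 3 of them. In the Cnmd-led cluster the gene had 46.5 CPM in knockout and 20.3 CPM in control cells, a ratio of 2.29 (1.47 to 3.57). In the Pamr1-led cluster it had 32.4 CPM in knockout and 16.7 CPM in control cells, a ratio of 1.94 (1.03 to 3.53). The Pamr1-led interval included 1 without the cell with the most UMIs in each library (0.953 to 3.53). It also did with cells of at least 5000 UMIs (0.855 to 3.23). In the Gm42743-led cluster, where Slc20a1 was highest in both libraries, the gene had 80.9 CPM in knockout and 40.8 CPM in control cells, a ratio of 1.98 (1.24 to 3.33). The Pcp4-led cluster had only 5 knockout UMIs and 25 control UMIs, and its ratio of 2.97 has an interval of 0.887 to 7.89. Within clusters the ratio was thus smaller than over the whole mesenchyme, and it was 2.16 when the 4 clusters were counted equally. The higher level was seen in cells of either sex, with a ratio of 4.09 (3.17 to 5.29) in Xist-positive cells and 2.24 (1.06 to 4.98) in Y-positive cells. Among Y-positive cells of single clusters the ratio ranged from 1.15 in the Pamr1-led to 6.09 in the Gm42743-led cluster, and with thinned cells the Cnmd-led ratio was 5.28.

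A list of 11 dissociation stress genes (Fos, Jun, Egr1, Hspa1a and others, known to respond to enzymatic tissue dissociation) was at least 1.5-fold higher for 8 of 11 genes in the knockout mesenchyme, with summed levels of 4759 CPM in knockout and 3110 CPM in control cells. Its median log2 ratio was 0.55 in the Cnmd-led, 0.28 in the Pcp4-led and -0.15 in the Gm42743-led cluster. Its summed levels, like those of Slc20a1, were highest in the Gm42743-led cluster, at 6404 CPM in knockout and 7251 CPM in control cells. The Cnmd-led cluster had 4369 CPM in knockout and 3240 CPM in control cells. The Pcp4-led cluster had the lowest, 789 CPM in knockout and 636 CPM in control cells. In the Pamr1-led cluster the list went the other way, with a median log2 ratio of -0.99 and summed levels of 2270.2 CPM in knockout and 4771 CPM in control cells, and the Slc20a1 ratio there was 1.94 (17 knockout UMIs). The part of dissociation in the Slc20a1 values was not tested. Markers of the immune cells in which Slc20a1 is highest were also higher in the knockout mesenchyme. The 7 neutrophil markers summed to 80.0 CPM in knockout and 25.02 CPM in control cells, with 0 of 7 at 0 UMIs in knockout and 3 of 7 in control cells. The 9 macrophage or monocyte markers summed to 41.8 CPM in knockout and 27.8 CPM in control cells, and the 8 dendritic markers to 11.5 CPM in knockout and 4.98 CPM in control cells. The part of such RNA in the Slc20a1 values was not tested.

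Slc20a2, the other importer, was mainly mesenchymal. The mesenchyme held 89.5% of its UMIs in knockout cells and 90.8% in control cells. Its level was 918 CPM in the knockout mesenchyme and 669.9 CPM in the control mesenchyme, a ratio of 1.37 (1.31 to 1.44). UMIs were seen in 93.3% of knockout and 91.8% of control mesenchymal cells, against 32.5% of knockout and 26.3% of control glia.

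Most of the Slc20a2 difference lay in 1 cluster and in the mix of clusters. In the Pamr1-led cluster, where the gene was highest, it had 1506 CPM in knockout and 1147 CPM in control cells, a ratio of 1.31 (1.21 to 1.42). In the Gm42743-led cluster it had 986 CPM in knockout and 985 CPM in control cells. The Cnmd-led cluster had 597 CPM in knockout and 641 CPM in control cells, and the Pcp4-led cluster, the lowest, 159 CPM in knockout and 199 CPM in control cells. Intervals of these 3 cluster ratios include 1. With clusters counted equally the mesenchymal ratio was 1.09, and without the Pcp4-led cluster it was 1.07. By sex the ratio was 1.32 in Xist-positive and 1.53 in Y-positive cells.

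Alpl, the pyrophosphate-cleaving phosphatase, was shared between mesenchyme and mural cells, the smooth muscle cells and pericytes around vessels. The mesenchyme held 61.1% of its UMIs in knockout cells and 50.5% in control cells, and mural cells held 34.7% in knockout and 46.8% in control cells. In the mesenchyme its level was 239 CPM in knockout and 189 CPM in control cells, a ratio of 1.26 (1.15 to 1.38). The share of cells with an Alpl UMI was 65.7% in the knockout and 67.7% in the control mesenchyme, against 1.51% of knockout and 3.35% of control glia.

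As for Slc20a2, the mix of clusters moved the Alpl ratio. Its interval lay above 1 in the Gm42743-led cluster, with 239 CPM in knockout and 157 CPM in control cells (ratio 1.52, 1.19 to 1.96). It lay below 1 in the shallow Pcp4-led cluster, where 6 knockout UMIs (35.4 CPM) stood against 206 control UMIs (81.9 CPM), a ratio of 0.432 (0.157 to 0.956). The Cnmd-led cluster had 225 CPM in knockout and 229 CPM in control cells, and the Pamr1-led cluster 326 CPM in knockout and 275 CPM in control cells. Counting the clusters equally gave 1.11, and leaving out the Pcp4-led cluster gave 1.04. By sex the ratio was 1.29 in Xist-positive and 1.34 in Y-positive cells.

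Phospho1, the matrix vesicle phosphatase, was at the detection limit, with 0 UMIs over all kept knockout cells and 6 over all kept control cells, 1 of them in the mesenchyme. A UMI was seen in 0 of 359 knockout mesenchymal cells, which allows a share of cells with a UMI of up to 0.836% at this depth and sets no limit on cells that express the gene.

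**Figure D2:**
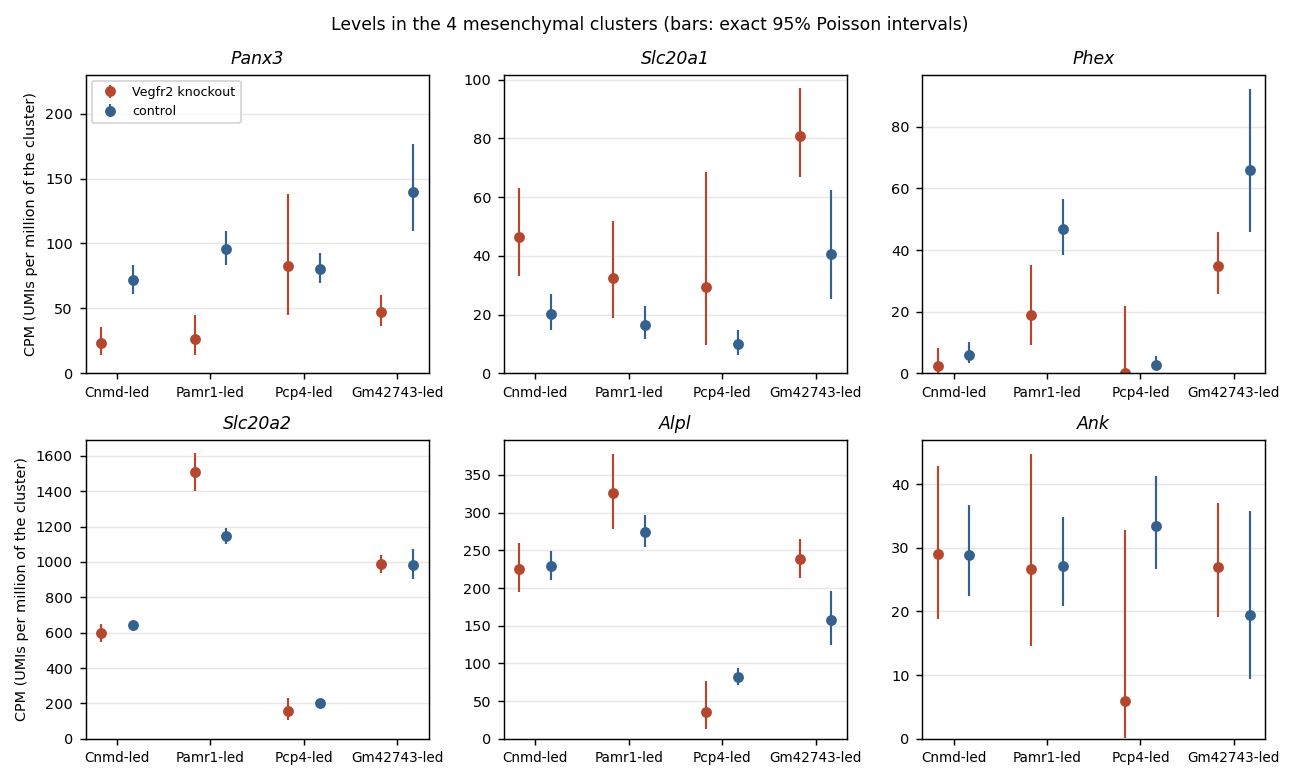
Level in CPM (UMIs scaled to the cluster total, vertical axis, own scale per panel) of 6 genes in the 4 mesenchymal clusters, Vegfr2 knockout library in red to the left of the control library in blue, with exact 95% Poisson intervals. Panx3 is lower in knockout cells of every cluster but the Pcp4-led one, where the levels are 82.5 CPM in knockout and 80.7 CPM in control cells, and Slc20a1 is higher in knockout cells of all 4.

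Panx3, the channel that passes ATP, was the clearest gene on the low side. It had 38.8 CPM (115 UMIs) in the knockout mesenchyme and 86.6 CPM (661 UMIs) in the control mesenchyme, a ratio of 0.448 (0.364 to 0.547). A UMI was seen in 81 of 359 knockout cells (22.6%) and 282 of 575 control cells (49.0%). After thinning to 2000 UMIs the shares were 6.38% of knockout and 16.7% of control cells. Panx3 was at 0 UMIs in 332 knockout and 358 control glia, which allows shares of cells with a UMI of up to 0.904% in knockout and 0.838% in control glia.

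In the Cnmd-led cluster Panx3 had 23.2 CPM in knockout and 72.0 CPM in control cells, a ratio of 0.323 (0.192 to 0.515). With thinned cells the ratio there was 0.400, and its interval of 0.118 to 1.08 includes 1. Dspp had 42 UMIs in 21 of 163 control cells of this cluster and 0 UMIs in its 90 knockout cells. Cells within a cluster may thus still differ in kind between the libraries. In the Pamr1-led cluster it had 26.7 CPM in knockout and 96.0 CPM in control cells, a ratio of 0.278 (0.149 to 0.476). In the Gm42743-led cluster, the highest for Panx3 in the control library, it had 47.6 CPM in knockout and 139.9 CPM in control cells, a ratio of 0.340 (0.240 to 0.481). The levels lay close together in the Pcp4-led cluster alone, at 82.5 CPM (14 UMIs) in knockout and 80.7 CPM (203 UMIs) in control cells, a ratio of 1.02 (0.549 to 1.76). Panx3 was lower in Xist-positive knockout cells (40.0 CPM against 90.8 CPM in control, ratio 0.440, 0.345 to 0.556). It was also lower in Y-positive knockout cells (38.0 CPM against 63.3 CPM in control, ratio 0.600), where the interval of 0.352 to 0.996 nearly reaches 1. Within the Cnmd-led cluster the ratio was 0.243 in Xist-positive and 0.841 in Y-positive cells.

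Phex, the peptidase tied to FGF23, gave a pooled value that its clusters did not share. The mesenchyme held 84.7% of its UMIs in knockout cells and 93.6% in control cells. Over the mesenchyme its level was 20.6 CPM (61 UMIs) in knockout and 21.2 CPM (162 UMIs) in control cells, a ratio of 0.970 (0.710 to 1.31). Within clusters it was lower in knockout cells wherever both libraries had UMIs. In the Gm42743-led cluster it had 34.8 CPM (49 UMIs) in knockout and 66.1 CPM (34 UMIs) in control cells, a ratio of 0.527 (0.333 to 0.841). In the Pamr1-led cluster it had 19.0 CPM (10 UMIs) in knockout and 46.9 CPM (107 UMIs) in control cells, a ratio of 0.406 (0.189 to 0.776). The Cnmd-led cluster had 2 knockout and 14 control UMIs, and the Pcp4-led cluster 0 knockout and 7 control UMIs. The Gm42743-led cluster was the richest in Phex in both libraries and held 49.9% of knockout but 10.3% of control mesenchymal cells. Counted equally, the 4 clusters gave a ratio of 0.461, whereas a mitochondrial limit of 5% gave a pooled ratio of 1.52. By sex the ratios were 1.18 (0.840 to 1.64) in Xist-positive cells and 0.536 (0.186 to 1.38) in Y-positive cells, which had 7 knockout and 16 control UMIs.

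**Figure D3:**
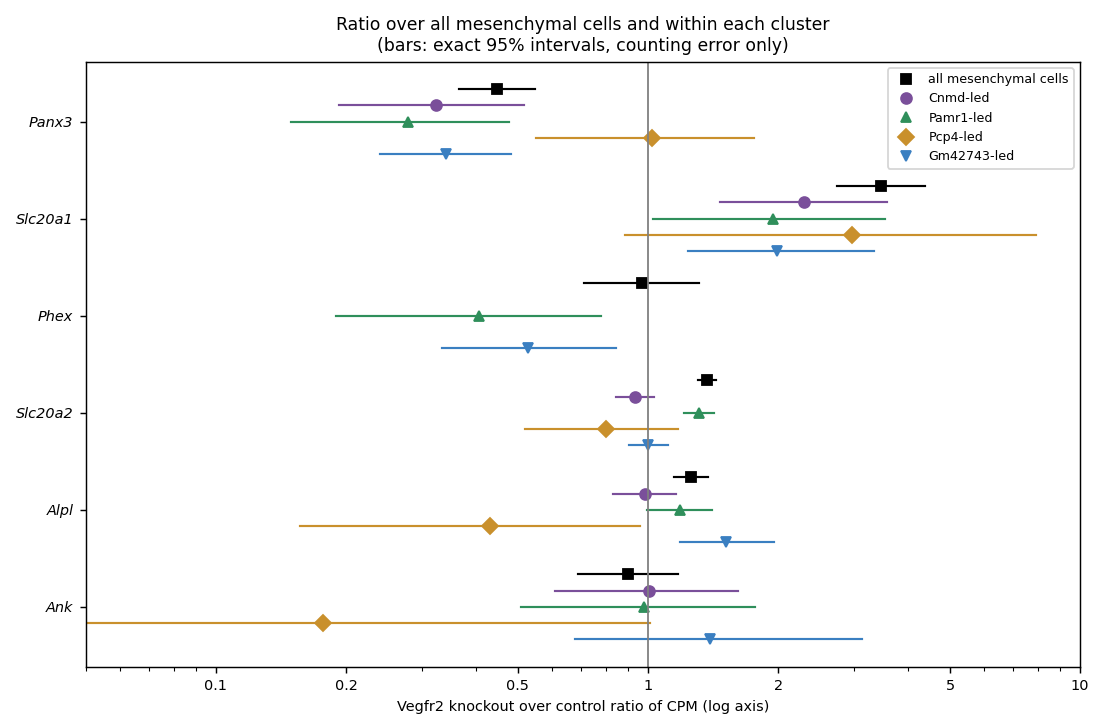
Vegfr2 knockout over control ratio of CPM (horizontal, log axis) over all mesenchymal cells (black squares) and within each of the 4 clusters (coloured symbols), for genes with at least 20 UMIs and some in each library, with exact 95% intervals of counting error. The Phex square sits at 0.970 while both of its cluster symbols sit below 1. The Ank interval in the Pcp4-led cluster (1 knockout UMI) runs past the left edge, down to 0.0044.

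Enpp1 and Ank, the sources of extracellular pyrophosphate, were not highest in the mesenchyme. Enpp1 had 2.70 CPM (8 UMIs) in knockout and 4.59 CPM (35 UMIs) in control mesenchymal cells. Its ratio of 0.589 lies past the 1.5-fold limit, but the interval of 0.236 to 1.29 includes 1, and it was 1.07 without the Pcp4-led cluster. Of its UMIs, 1 in knockout and 23 in control cells lay in the Pcp4-led cluster, and the other 3 clusters each had at most 4 knockout and 7 control UMIs. Ank had 26.3 CPM in knockout and 29.2 CPM in control mesenchymal cells, a ratio of 0.901 (0.687 to 1.17). Its cluster ratios were 1.01 in the Cnmd-led, 0.981 in the Pamr1-led and 1.39 in the Gm42743-led cluster, all with intervals that include 1. In the Pcp4-led cluster 1 knockout UMI stood against 84 control UMIs, a ratio of 0.176 (0.0044 to 1.01).

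Outside the mesenchyme, Alpl was highest in mural cells in both libraries. There it had 308 CPM in knockout and 384 CPM in control cells, a ratio of 0.802 (0.716 to 0.897). The cluster led by the smooth muscle myosin gene Myh11 had 356 CPM in knockout and 473 CPM in control cells (ratio 0.754, 0.663 to 0.855). The Steap4-led cluster, with the pericyte genes Kcnj8 and Abcc9 among its leading genes, had 110.4 CPM in knockout and 188 CPM in control cells (ratio 0.588, 0.411 to 0.825). The remaining mural cluster, led by Nrgn, held only 2 knockout and 12 control cells, and there the Alpl level was higher in the knockout cells. Over all mural cells the Alpl difference depended on the sex of the cells, with a ratio of 1.01 in Xist-positive and 0.471 in Y-positive cells. Y-positive cells were 46.2% of the assigned knockout mural cells and 10.4% of the control ones, and 11 of 11 dissociation stress genes were at least 1.5-fold higher in knockout mural cells. The part of either in the mural Alpl values was not tested further. Among the 5 genes measured in mural cells, Slc20a2 was past 1.5-fold higher (10.9% of all genes were), with 58.3 CPM in knockout and 37.3 CPM in control cells (ratio 1.56, 1.16 to 2.09). Enpp1 and Ank were past 1.5-fold lower, where 11.5% of all genes were. Enpp1 had 5 knockout UMIs (3.83 CPM) and 50 control UMIs (14.3 CPM), all in the Steap4-led cluster, and 1 cell held 80.0% of the knockout UMIs and 1 cell 32.0% of the control UMIs. Its ratio was 0.268 (0.0833 to 0.667), and 0.0788 without these cells. Ank had 8.44 CPM in knockout and 13.2 CPM in control mural cells, and the interval of its ratio, 0.299 to 1.25, includes 1.

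In endothelial cells, the target of the knockout, 4 of the 8 genes were measured. Alpl was the 1 gene past 1.5-fold higher, against 11.9% of all genes, with 18.0 CPM (19 UMIs) in knockout and 3.81 CPM (20 UMIs) in control cells. Its ratio was 4.73 (2.39 to 9.35). All 19 knockout UMIs and 14 of the 20 control UMIs lay in the cluster led by the arterial connexin gene Gja5, at 55.3 CPM in knockout and 20.3 CPM in control cells (ratio 2.73, 1.30 to 5.88). With no doublet removal the endothelial ratio was 3.05. The 9 markers of mural cells, the class richest in Alpl, summed to 613 CPM in knockout and 322 CPM in control endothelial cells, with 0 of 9 at 0 UMIs in either library. Of 11 dissociation stress genes 6 were at least 1.5-fold higher, with summed levels of 6570 CPM in knockout and 3731 CPM in control endothelial cells. The part of either in the Alpl ratio was not tested. The Gja5-led cluster held 36 of 141 knockout and 58 of 405 control endothelial cells. No gene of the 4 was past 1.5-fold lower, where 15.2% of all genes were. Slc20a1 had 56.0 CPM in knockout and 41.1 CPM in control endothelial cells, a ratio of 1.36 whose lower bound is 1.003. Its clusters went opposite ways, with 74.4 CPM in knockout and 32.3 CPM in control cells of the cluster led by Sele, the E-selectin gene (ratio 2.30, 1.58 to 3.31). In the Gja5-led cluster it had 17.5 CPM in knockout and 47.8 CPM in control cells (ratio 0.365, 0.125 to 0.883).

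Slc20a1 was foremost a gene of immune cells. Dendritic cells held 48.3% of its UMIs in the knockout library and 45.8% in the control library. In knockout cells its order ran from neutrophils at 245 CPM through dendritic cells at 152 CPM to macrophages or monocytes at 118 CPM. In control cells dendritic cells led at 96.1 CPM, and neutrophils (57.4 CPM), T or NK cells (56.8 CPM) and macrophages or monocytes (50.5 CPM) had overlapping intervals. The macrophage or monocyte ratio was 2.34 (1.88 to 2.91), the 1 gene of 5 measured there past 1.5-fold higher, as were 10.4% of all genes. Within clusters, the Adgre4-led one had 192 CPM in knockout and 49.1 CPM in control cells (ratio 3.91, 2.91 to 5.26). The F10-led cluster, with the monocyte gene Ly6c2 among its leading genes, had 118 CPM in knockout and 122 CPM in control cells. It held 122 of 245 knockout but 24 of 226 control macrophages or monocytes, so the mix of clusters also moves the pooled ratio. The 7 neutrophil markers summed to 3297 CPM in knockout and 220.0 CPM in control macrophages or monocytes, and their part in the ratio was not tested. The ratio in Y-positive macrophages or monocytes was 0.777, against 3.69 in Xist-positive ones. Neutrophils had a ratio of 4.28 (2.47 to 7.75) over 37 knockout and 36 control cells. Among dendritic cells the Cd209a-led cluster had 179 CPM in knockout and 108 CPM in control cells, whereas the cluster led by the cell division gene Birc5 had 64.5 CPM in knockout and 111 CPM in control cells. The Ccr7-led cluster held more of the knockout dendritic Slc20a1 UMIs than any other dendritic cluster. It held 98 of 280 knockout but 18 of 298 control dendritic cells, so the mix of dendritic clusters also differed between the libraries.

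In macrophages or monocytes Slc20a2 and Alpl were past 1.5-fold lower, as were 12.4% of all genes. Slc20a2 had 8.34 CPM (16 UMIs) in knockout and 19.6 CPM (54 UMIs) in control cells, a ratio of 0.426 (0.227 to 0.755). The ratio was 0.889 with a mitochondrial limit of 5% and 0.809 (0.456 to 1.39) with a marker gate per cell. Without the cell with the most UMIs in each library it was 0.607 (0.300 to 1.17). Alpl had 5 knockout and 16 control UMIs. Slc20a2 was at 0 UMIs in knockout neutrophils, which allows up to 13.6 CPM by the limit of 3 counts (16.8 CPM by the exact Poisson interval), and had 21 UMIs (67.0 CPM) in control neutrophils. The same 36 control neutrophils also held 9 Alpl and 4 Panx3 UMIs, genes otherwise found mainly in mesenchyme or, for Alpl, in mural cells and mesenchyme. The part of free RNA in these low counts was not tested.

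**Figure D4:**
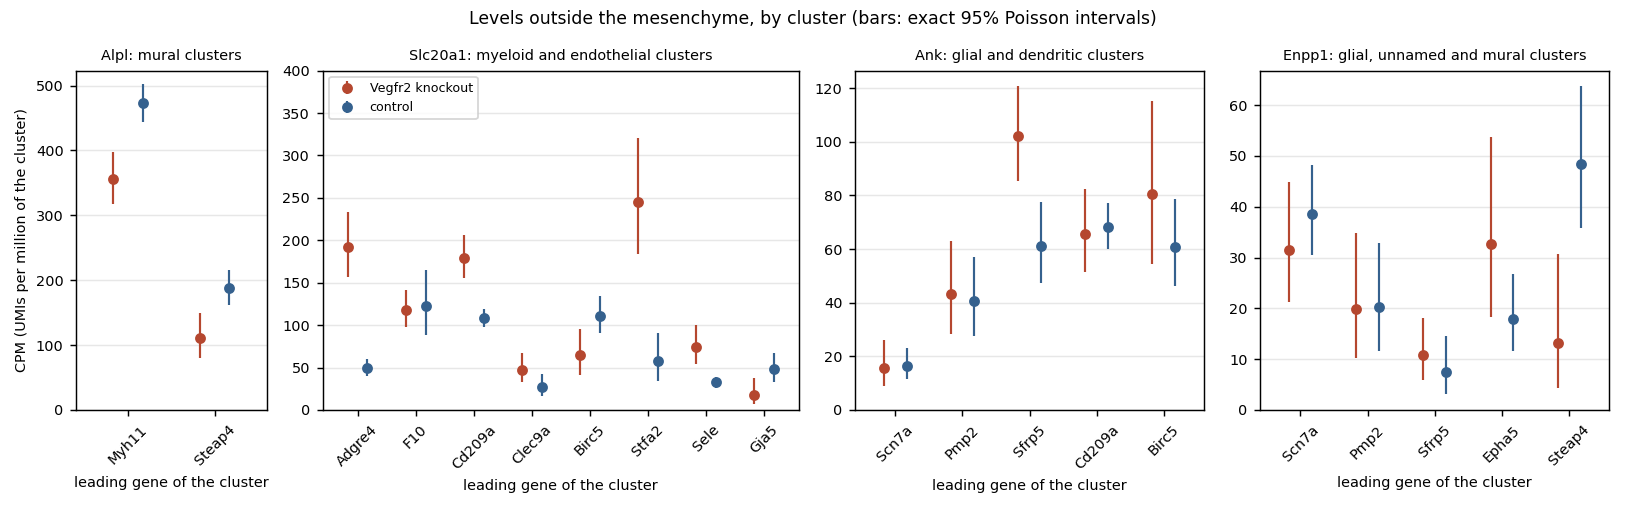
Level in CPM (UMIs scaled to the cluster total, vertical axis, own scale per panel) of Alpl, Slc20a1, Ank and Enpp1 in clusters outside the mesenchyme, Vegfr2 knockout library in red to the left of the control library in blue, with exact 95% Poisson intervals. Alpl is lower in knockout cells of the Myh11-led (356 CPM in knockout and 473 CPM in control cells) and Steap4-led mural clusters. The small Nrgn-led mural cluster is not shown. Slc20a1 differs in both directions among myeloid and endothelial clusters.

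Glia, the Schwann-like cells of the pulp nerves, held most Enpp1 UMIs, 63.2% in the knockout library and 52.7% in the control library. Ank was spread more widely. Its level was highest in glia and dendritic cells of the knockout library, and in dendritic cells of the control library, where endothelial cells, glia and mesenchyme followed at 30.8, 30.7 and 29.2 CPM with overlapping intervals. Enpp1 had 27.9 CPM in knockout and 33.3 CPM in control glia, a ratio of 0.837 (0.634 to 1.10). Without the cell with the most UMIs in each library this ratio was 0.704 (0.521 to 0.944). By sex it was 1.12 in Xist-positive and 0.601 in Y-positive glia. Ank had 58.0 CPM in knockout and 30.7 CPM in control glia, a ratio of 1.89 (1.51 to 2.38), which was 1.21 with a mitochondrial limit of 5%. Slc20a2 had 54.4 CPM in knockout and 26.2 CPM in control glia, a ratio of 2.08 (1.63 to 2.65). Ank and Slc20a2 were thus the 2 of 4 measured genes past 1.5-fold higher, where 9.41% of all genes were. The Sfrp5-led cluster, highest for Ank in both libraries and for Slc20a2 in the knockout library, held 117 of 332 knockout and 77 of 358 control glia. Within it Ank had 102 CPM in knockout and 61.1 CPM in control cells (ratio 1.67, 1.23 to 2.28), and Slc20a2 had 81.9 CPM in knockout and 37.0 CPM in control cells (ratio 2.21, 1.52 to 3.27). Control cells of the Prc1-led cluster had 39.1 CPM of Slc20a2 with an overlapping interval. The Ank ratio was 0.950 (0.479 to 1.80) in the Scn7a-led and 1.06 (0.609 to 1.84) in the Pmp2-led cluster. Slc20a1 was past 1.5-fold lower (11.1% of all genes were), with 2.65 CPM (8 UMIs) in knockout and 10.7 CPM (50 UMIs) in control glia. Its ratio was 0.247 (0.101 to 0.526), and 0.422 with the mitochondrial limit of 5%. The Scn7a-led cluster had 3 knockout and 13 control UMIs, the Sfrp5-led 2 and 8, and the Pmp2-led 1 and 3. Intervals of these cluster ratios include 1. The other UMIs lay in the Prc1-led cluster, which held 12 of 332 knockout but 41 of 358 control glia. Dissociation stress genes were at least 1.5-fold higher for 7 of 11 in knockout glia, and their part in these ratios was not tested. In dendritic cells Ank had 55.7 CPM in knockout and 56.9 CPM in control cells, a ratio of 0.978 (0.814 to 1.17).

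Other genes of the same pathways were read in the mesenchyme. Of 8 further phosphate transport genes 3 were measured and 2 were past 1.5-fold higher, where 11.5% of all measured genes were. Xpr1, the phosphate exporter, had 112 CPM in knockout and 57.6 CPM in control cells, a ratio of 1.94 (1.68 to 2.25). Its ratio was 1.72 in the Cnmd-led, 1.72 in the Pamr1-led, 1.62 in the Pcp4-led and 2.23 in the Gm42743-led cluster. Slc37a2, a sugar phosphate exchanger, had 18 knockout and 27 control UMIs, and the interval of its ratio of 1.72 includes 1. Within clusters its ratio was 0.668 in the Pamr1-led and 0.804 in the Gm42743-led one. The mitochondrial phosphate carrier Slc25a3 had 284 CPM in knockout and 347 CPM in control cells, with a ratio of 0.836 in the Cnmd-led and 1.17 in the Gm42743-led cluster.

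Of 15 further genes of pyrophosphate and nucleotide handling 12 were measured, of which 1 was past 1.5-fold higher and 5 lower. Of all measured genes 11.5% were higher and 13.1% lower by this limit. The median log2 ratio was -0.55, beside -0.050 for all genes. Among genes measured within clusters it was -0.31 in the Cnmd-led, 0.12 in the Pamr1-led, -0.20 in the Pcp4-led and -0.076 in the Gm42743-led cluster. Enpp3, a nucleotide pyrophosphatase of the Enpp1 family, had 20.6 CPM in knockout and 47.3 CPM in control cells, a ratio of 0.435 (0.326 to 0.572). Its cluster ratios were 0.214 in the Cnmd-led, 0.419 in the Pamr1-led, 0.645 in the Pcp4-led and 0.524 in the Gm42743-led cluster. Enpp5, another family member, had 50.3 CPM in knockout and 29.3 CPM in control cells, a ratio of 1.71 (1.38 to 2.12). Its ratio was 1.78 (1.05 to 2.96) in the Cnmd-led, 1.196 (0.812 to 1.72) in the Pamr1-led and 1.53 (0.934 to 2.64) in the Gm42743-led cluster, and the Pcp4-led cluster had 0 knockout and 25 control UMIs. Entpd2, which degrades extracellular ATP, had 4 knockout and 19 control UMIs, too few to divide by cluster.

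Of 11 genes of FGF23 and phosphate signalling 6 were measured, and 3 were past 1.5-fold higher, where 11.5% of all measured genes were. Their median log2 ratio was 0.53, beside -0.050 for all genes. Over the genes measured within clusters it was 0.33 in the Cnmd-led, 0.12 in the Pamr1-led, 0.11 in the Pcp4-led and -0.37 in the Gm42743-led cluster. Stc1, a secreted stanniocalcin, had 8.43 CPM (25 UMIs) in knockout and 1.44 CPM (11 UMIs) in control cells, a ratio of 5.85 (2.78 to 13.2), and 17 of the knockout UMIs and 0 of the control UMIs were in the Gm42743-led cluster. Fam20c, the kinase of secreted phosphoproteins, had 21.9 CPM in knockout and 7.60 CPM in control cells, a ratio of 2.89 (1.99 to 4.19). Within clusters its ratio was 2.43 (1.17 to 4.86) in the Pamr1-led and 0.694 (0.394 to 1.26) in the Gm42743-led cluster. Stc2, the other stanniocalcin, had 195 CPM in knockout and 129 CPM in control cells, a ratio of 1.51, which was 0.775 in the Gm42743-led and 1.52 in the Cnmd-led cluster. Fgf23 had 0 knockout UMIs and 2 control UMIs.

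Of 12 genes of matrix vesicles and mineral deposition 10 were measured, and 3 were past 1.5-fold lower, where 13.1% of all measured genes were. Their median log2 ratio was -0.28, beside -0.050 for all genes. Within clusters it was -0.098 in the Cnmd-led, -0.0085 in the Pamr1-led, 0.083 in the Pcp4-led and -0.18 in the Gm42743-led cluster. Spp1, which encodes osteopontin, had 8 knockout and 60 control UMIs (2.70 CPM in knockout and 7.86 CPM in control cells), a ratio of 0.343 (0.142 to 0.721). Smpd3, a sphingomyelinase needed for mineralisation, had 9.11 CPM in knockout and 21.7 CPM in control cells, a ratio of 0.419 (0.268 to 0.632). The Pcp4-led cluster, which was rarer in the knockout library, held 25 of the 27 knockout and 150 of the 166 control Smpd3 UMIs. Within it Smpd3 had 147 CPM (25 UMIs) in knockout and 59.6 CPM (150 UMIs) in control cells, a ratio of 2.47, and Spp1 17.7 CPM (3 UMIs) in knockout and 19.1 CPM (48 UMIs) in control cells. Ibsp, the bone sialoprotein gene, had 12 knockout and 56 control UMIs, and the interval of its ratio of 0.552 includes 1. Its ratio was 0.245 in the Cnmd-led, 0.805 in the Pamr1-led and 0.304 in the Gm42743-led cluster, each from 5 or fewer knockout UMIs.

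Likeness of pattern was measured as Pearson's r of log2(CPM + 10) over 23 profiles, the classes and mesenchymal clusters of each library, which share library and depth and are not independent. Panx3 was most like Slc25a21 (0.969), Serinc2 (0.963) and the Wnt antagonist Wif1 (0.957). Slc20a2 was most like Col25a1 (0.978), Fgf13 (0.973) and Car12 (0.969). Alpl was most like Parm1 (0.968), Pde5a (0.954) and Serping1 (0.945), and Phex most like Prkg2 (0.960), Jhy (0.953) and Pdk4 (0.953). Slc20a1 was most like Dusp5 (0.878), Rgs2 (0.854) and Fth1 (0.833). Enpp1 and Ank had no close match, with Gal3st1 (0.794) and Mapk6 (0.792) first. Among the 8 genes, the pairs Slc20a2 with Panx3 (0.860), Alpl with Slc20a2 (0.796) and Phex with Slc20a2 (0.794) were closest, and Slc20a1 with Enpp1 (-0.634) was farthest. The phosphate importers themselves had r of -0.358 over the profiles.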

How the data were processed

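The authors deposited a filtered matrix of UMI counts per gene and barcode for each library of pulp cells, raw and not normalised. Per the file headers the knockout matrix was written by Cell Ranger 6.0.1 and the control matrix by Cell Ranger 5.0.0, and both are listed as Cell Ranger 6.0.1 with build mm10 in the submitters' processing notes. The matrices held 2563 knockout and 3487 control barcodes with 17277162 UMIs in the knockout and 35918862 UMIs in the control library, and 0 columns were unmatched. Groups came from the labels.

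Barcodes were dropped below 500 genes, below 1000 UMIs or above 10% mitochondrial UMIs. The last limit dropped 31.6% of knockout and 30.2% of control barcodes. Scrublet removed 15 knockout and 18 control doublets. Counts were scaled to 10000 per cell and logged, and both libraries were clustered together without integration (2000 variable genes, 30 components, 15 neighbours, Leiden resolution 1). Mitochondrial, ribosomal, haemoglobin and sex-linked genes and the 54 pathway genes were left out of the variable genes. Clusters were named from marker lists if at least 3 markers were detected and the 10 leading genes did not favour another class. The 1 unnamed cluster (54 knockout and 95 control cells) had glial markers but the pulp gene Nnat among its leading genes. Class names are rebuilt here and mean marker likeness.

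UMIs were summed per library, and ratios (knockout over control) were given exact conditional 95% intervals, shares exact Clopper-Pearson intervals and levels exact Poisson intervals. A gene counts as measured with at least 20 UMIs over both libraries. A count of 0 allows 3 counts of the total. In simulated Poisson counts 96.0% of the ratio intervals held the true ratio, as exact intervals are built to do. The simulation had no differences between cells, so it does not show how the intervals cover such spread. No test was made, since cells are not replicates. The members and lists were chosen with earlier results of these data known. Named genes were the 8 members, up to 3 genes per related list with the ratio farthest from 1 past 1.5-fold, and the 3 genes most like each member. Genes named beside these (Kdr, Dspp, Fgf23, Slc25a3 and cluster leading genes) were chosen after their values were seen. Promoter sequences are from RefSeq on GRCm38.p6. The tools were Python 3.11.15, scanpy 1.11.5, numpy 2.4.6, scipy 1.17.1 and pandas 2.3.3.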

Additional observations from a re-analysis of the deposited data

Results flagged for a closer look

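Knockout over control ratios of 3 genes lay on opposite sides of 1 in different cell classes, with intervals that exclude 1 on both sides. The difference between classes was not tested, since each genotype has 1 library. Alpl had ratios of 1.26 in the mesenchyme and 4.73 in endothelial cells, but 0.802 in mural cells. Without the Pcp4-led cluster the mesenchymal Alpl ratio was 1.04 (0.942 to 1.14). The mural Alpl ratio was 1.01 (0.871 to 1.17) in Xist-positive and 0.471 in Y-positive cells. Slc20a1 had ratios of 3.46 in the mesenchyme, 1.36 in endothelial cells and 2.34 in macrophages or monocytes, but 0.247 in glia. Without the cell with the most UMIs in each library its endothelial ratio was 1.17 (0.836 to 1.62). Its macrophage or monocyte ratio was 0.777 in Y-positive and 3.69 in Xist-positive cells. The glial ratio rests on 8 knockout UMIs, and its intervals within the Scn7a-led, Sfrp5-led and Pmp2-led clusters include 1. Slc20a2 had ratios of 1.37 in the mesenchyme, 1.56 in mural cells and 2.08 in glia, but 0.426 in macrophages or monocytes. The macrophage or monocyte interval included 1 without the cell with the most UMIs in each library (ratio 0.607, 0.300 to 1.17).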

How the results depend on the processing

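No paired analysis was possible because each genotype has 1 library. Of 25 member ratios with an interval that excludes 1, 242 of 276 alternative values moved by less than the interval, 32 moved further without a change of side, and 2 changed side of 1. These are Alpl in mural cells, 1.01 in Xist-positive cells, and Slc20a1 in macrophages or monocytes, 0.777 in Y-positive cells. The count of members at least 1.5-fold lower in the mesenchyme was 2, and 1 with cells thinned to 2000 UMIs, with Xist-positive cells, with a marker gate per cell, with a mitochondrial limit of 5% and without the Pcp4-led cluster. The count at least 1.5-fold higher was 1, and 2 in Y-positive cells and 4 with the mitochondrial limit of 5%, which left 53 knockout and 245 control mesenchymal cells. Over 16 alternatives each, the mesenchymal ratio of Panx3 ranged from 0.341 to 0.600, Slc20a1 from 2.16 to 4.25, Slc20a2 from 1.07 to 1.57, Alpl from 1.04 to 1.69 and Phex from 0.461 to 1.52. Equal counting of clusters, the values without the Pcp4-led cluster and all alternatives for the ratios in other classes and single clusters were chosen after seeing the data. The cause of these shifts was not tested. Depth limits Phospho1, Enpp1 in the mesenchyme and most values of the 26 knockout cells in the Pcp4-led cluster. In the same way, 1 library per genotype leaves library, animals, sex of cells and genotype where they cannot be told apart.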
